A study of Mus musculus with 16 samples.

Results

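Alveolar type 1 cells (AT1 cells) are described here from a single-cell RNA sequencing study of mouse lung. They are the cells that the authors' deposited table annotates with the subtype AT1, and they numbered 191 among 80449 cells, or 0.237%. Among the 5195 cells annotated as AT1, alveolar type 2 (AT2), ciliated or club cells they made up 3.68%. AT2 cells numbered 4025, ciliated cells 818 and club cells 161. Which genes the authors used to name the type is not given in the sources used here.

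AT1 cells are flat epithelial cells that cover nearly all of the gas exchange surface of the lung. Each shares a thin basement membrane with the capillaries beneath it, through which oxygen and carbon dioxide pass. They can arise from AT2 cells, the cuboidal cells that make surfactant, and are known for large membrane sheets rich in caveolae, for ion and water transport across the alveolar wall, and for signals to the endothelium.

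Whole-lung suspensions were sorted for live cells, fixed, and barcoded by split-pool combinatorial indexing. Mice were treated with vehicle, with 6-OHDA, a toxin that destroys sympathetic nerve terminals, or with BIBO3304, an antagonist of the neuropeptide Y receptor NPY1R. Each treatment was given without seeded cancer cells (3 samples each) and with seeded cells of pancreatic ductal adenocarcinoma, PDAC (2 samples each, named vehicle-PDAC, 6-OHDA-PDAC and BIBO3304-PDAC). Of strain, sex, age, dose and time nothing is given in the sources used here. Nor do they say whether numbered samples come from separate mice, so a p-value measures only the spread between samples, which may be technical.

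Samples held 10003796 to 32580698 transcripts in all. The AT1 cells held 458942, with a median of 1923 per cell (range 493 to 12799) and 844 genes per cell. AT1 cells ranked 12 of 22 types by median transcripts. They ranked 1 of 22 by the median percent of mitochondrially encoded transcripts, with 2.73% against 2.31% in AT2 cells. The sample labelled vehicle-PDAC 2 held 0 annotated cancer cells among its 9157 cells (a count of 0 allows up to 0.0328%), while the other 5 seeded samples held 33 to 75. The unseeded vehicle samples held 2, 1 and 1, and the unseeded 6-OHDA and BIBO3304 samples 0. This goes against its label, and comparisons that rest on vehicle-PDAC 2 are given with and without it. Each deposited sublibrary, a technical split of the cell pool, held 3 to 21 AT1 cells. Without the sublibrary tag, 49 of the AT1 cells carried a barcode that also occurred in another sublibrary, as did 18900 of all cells.

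The defining markers Ager, Hopx, Aqp5 and Rtkn2 were at their highest level in AT1 cells among the 22 annotated types. Levels are given in CPM, the transcripts of a gene divided by all transcripts of the pooled cells and scaled to the usual CPM unit of 1000000, with 95% Poisson intervals that cover counting error only. Levels of different genes are not compared, since CPM does not correct for gene length. No test is attached to differences between cell types, because types were assigned from the same transcripts.

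Rtkn2, which encodes rhotekin-2, reached 4432 CPM in AT1 cells (interval 4241 to 4629). It reached 4.92 CPM in AT2, 3.60 CPM in ciliated and 0 CPM in club cells. The nearest other type was aerocyte capillary endothelium with 11.1 CPM. Over the 15 samples, Rtkn2 in AT1 cells had a lowest value of 3159, a median of 4458 and a highest value of 6139 CPM, and in AT2 cells it never exceeded 11.6 CPM. AT1 and AT2 values did not overlap.

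Hopx, which encodes a homeodomain protein that lacks DNA binding, reached 1579.7 CPM (1467 to 1699) against 4.32 CPM in AT2, 53.6 in ciliated and 28.4 in club cells. Aerocyte capillary cells held 152 CPM, so Hopx was 10.4-fold higher in AT1 cells than in the nearest type. Over the 15 samples it ranged from 790.2 to 2107 CPM in AT1 cells with a median of 1519. The lowest value came from the 2 AT1 cells of BIBO3304-PDAC 2.

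Ager, which encodes the receptor RAGE, reached 4277 CPM (4090.1 to 4471) in AT1 cells and 421 CPM in AT2 cells, a 10.2-fold difference. In AT1 cells its lowest sample value was 2958, its median 4299 and its highest 5793 CPM. In AT2 cells it ran from 289.6 to 622 CPM, below every AT1 value. Ager was thus shared with AT2 cells at a lower level, unlike Rtkn2. AT1 cells held 0.965 Ager transcripts per Rtkn2 transcript (1963 and 2034), whereas AT2 cells held 85.6 (7016 and 82).

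Aqp5, a water channel, separated AT1 cells least of the 4 markers. It reached 281 CPM (235 to 334) against 75.1 CPM in AT2 and 46.4 CPM in club cells, a 3.74-fold difference from the nearest type. Its sample values in AT1 cells ran from 0 to 485 CPM with a median of 249.9, and 14 of 15 samples lay above their own AT2 cells. The exception was BIBO3304-PDAC 2, whose 2531 AT1 transcripts held 0 of Aqp5. In 4 samples Aqp5 rested on 3 or fewer transcripts.

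In the 8 samples with at least 10 AT1 cells (142 cells together), the levels were 4249 ± 781 CPM for Ager, 1587 ± 366 for Hopx, 278 ± 94.3 for Aqp5 and 4339 ± 732 for Rtkn2 (SD, n = 8 for each).

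**Figure D1:**
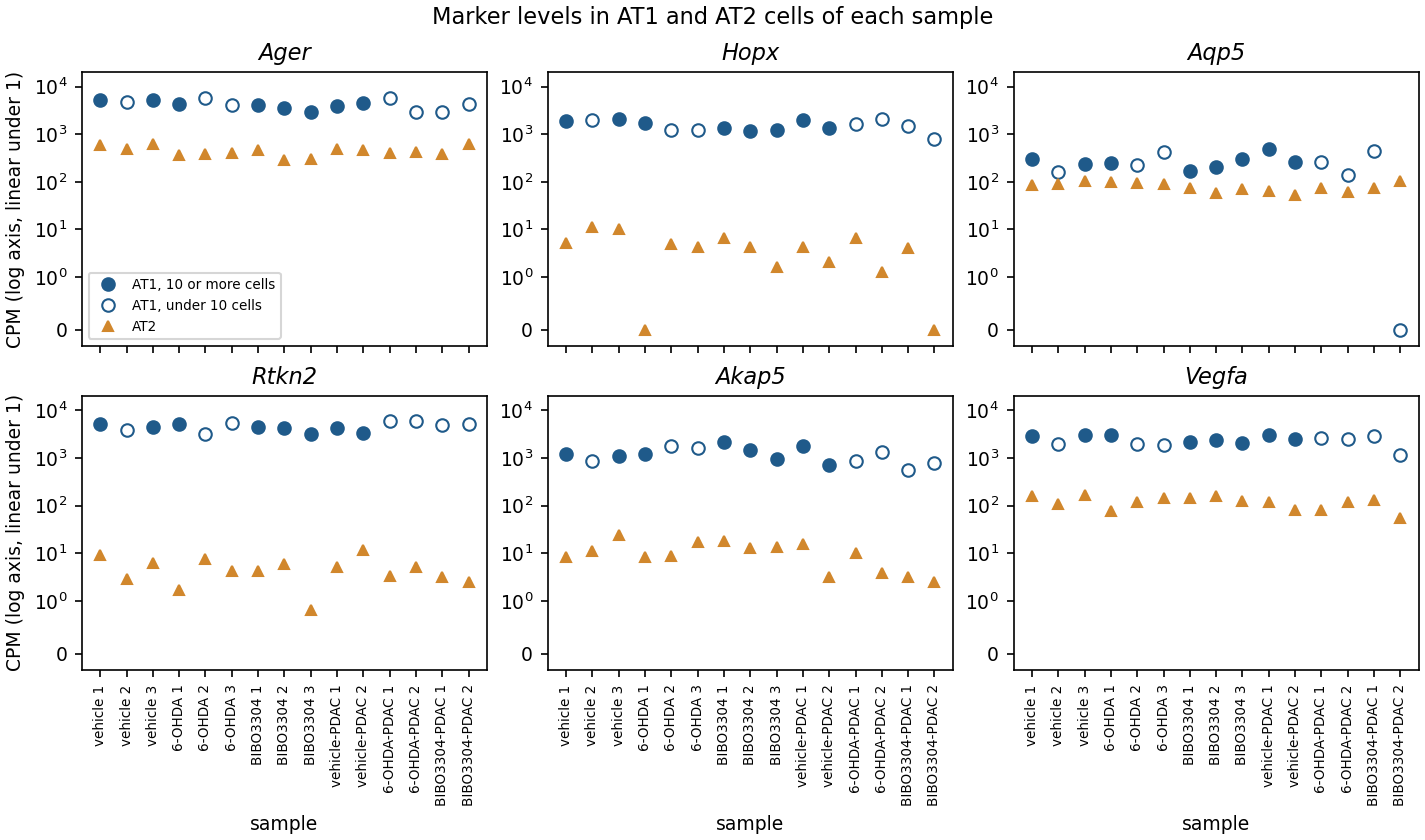
Level of 6 genes in AT1 cells (circles, open for samples with under 10 AT1 cells) and AT2 cells (triangles) in each of the 15 samples, in CPM on an axis that is logarithmic above 1 and linear below. AT1 values lie above AT2 values in all samples for Ager, Hopx, Rtkn2, Akap5 and Vegfa, and in 14 of 15 for Aqp5.

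Cell by cell, 190 of the 191 AT1 cells held a transcript of at least 1 of the 4 markers, 182 held at least 2, 155 at least 3 and 68 all 4. The 1 cell without any had 493 transcripts, the lowest of all AT1 cells. Rtkn2 was seen in 97.9% of AT1 cells, Ager in 92.1%, Hopx in 82.2% and Aqp5 in 39.3%. Detection moved with depth. With cells ranked by transcripts into 4 equal sets, in the shallowest set (493 to 1099), Aqp5 was seen in 8.33% and Hopx in 64.6%, and in the deepest set (3195 to 12799) in 64.6% and 97.9%. Rtkn2 was seen in 91.7% of the shallowest set and in all cells of the other 3. The level of Ager was 6209 CPM in the shallowest set and 3884 CPM in the deepest, while that of Rtkn2 was 4624 and 4213 CPM.

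At equal depth, few AT2, club, ciliated and aerocyte capillary cells held more than 1 of these markers. After every cell was thinned to 1000 transcripts, leaving out shallower cells (39 AT1 cells), 95.4% of 152 AT1 cells held at least 2 markers. The same share was 3.89% of 3701 AT2 cells, 0.514% of 1362 aerocyte capillary cells and 0 of 150 club and 609 ciliated cells. Before thinning, the shares were 95.3% of AT1 cells, 19.9% of AT2 cells and 1.01% of aerocyte capillary cells. Outside the annotated AT1 cells, 40 cells held at least 3 markers, 24 of them AT2 cells, and their median was 10049 transcripts. These cells can hold transcripts of a second cell, since doublets were not removed here. Ager was seen in 65.5% of AT2 cells but in 2.20% of alveolar macrophages, at median depths of 3025 and 2932 transcripts. After thinning the shares were 35.4% and 0.733%.

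**Figure D2:**
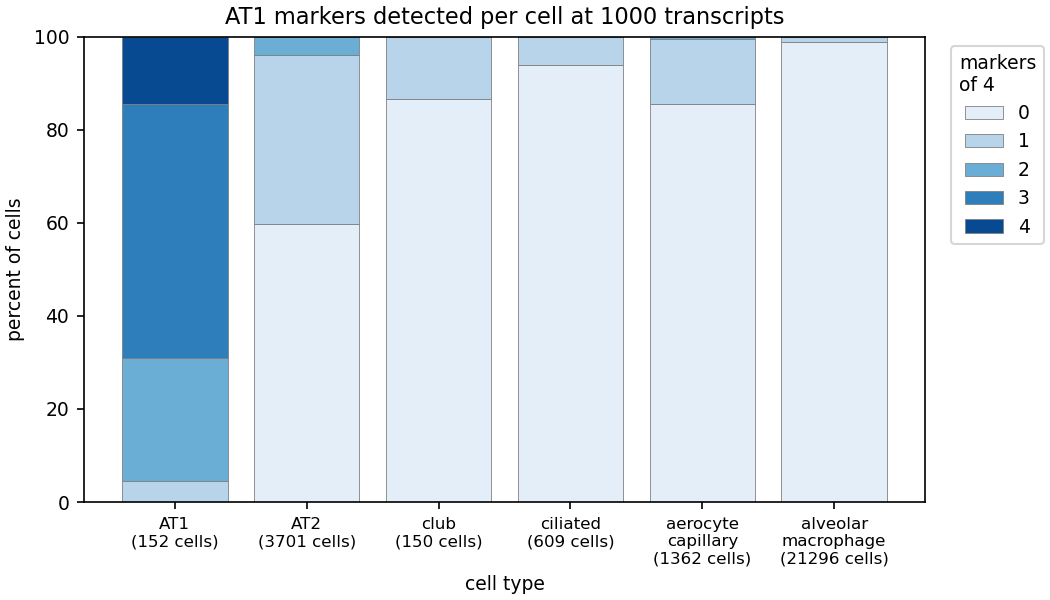
Percent of cells with 0 to 4 of the markers Ager, Hopx, Aqp5 and Rtkn2 after each cell was thinned to 1000 transcripts, for 6 annotated cell types with the number of cells used. Of 152 AT1 cells 95.4% hold 2 or more, against 3.89% of AT2 cells.

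Across all genes, 2959 reached at least 20 transcripts and 20 CPM in AT1 cells. Of these, 225 (7.60%) were at least 4-fold above each of AT2, ciliated and club cells, and 147 (4.97%) at least 2-fold above every other annotated type. Both held for 82 genes. Of the 225, 88 were higher in at least 1 type outside the epithelium than in AT1 cells. The highest other type was aerocyte capillary endothelium for 35 of the 225, mesothelium for 26, smooth muscle and pericytes for 21, and alveolar fibroblasts for 20. By the number of the 225 higher than in AT1 cells, aerocyte capillary endothelium had 34, large-vessel endothelium 28 and general capillary endothelium 26. The same counts over all 2959 genes were not made, so they do not single out a type.

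The genes with the largest excess over the epithelium did not all set AT1 cells apart from the whole lung. Akap5, which encodes an anchoring protein for protein kinase A, reached 1264 CPM against 12.1 CPM in AT2 cells, which were also the nearest of all types (105-fold). In single samples Akap5 ran from 575 to 2143 CPM in AT1 cells, with a median of 1198, and from 2.48 to 24.6 CPM in AT2 cells. Scel, which encodes sciellin of cornified envelopes, reached 484 CPM against 0.360 CPM in AT2 cells, 0 in ciliated and club cells, and 49.6 CPM in mesothelium. Spock2, a secreted proteoglycan gene, reached 1268 CPM against 17.6 CPM in ciliated cells and 241 CPM in mesothelium. Rasgrf2, a Ras exchange factor gene, reached 621 CPM against at most 3.60 CPM in the other epithelial types and 157 CPM in large-vessel endothelium.

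Others were high against the epithelium but shared with mesenchymal or mesothelial cells. Gpm6a, a neuronal membrane glycoprotein gene, held 181 CPM in AT1 cells, 5.40 CPM in ciliated cells and 2342 CPM in mesothelium. Rcan2, a calcineurin regulator gene, held 279 CPM in AT1 cells and 374 CPM in smooth muscle and pericytes. Plod2, which encodes a collagen lysyl hydroxylase, held 211 CPM in AT1 cells and 128 CPM in alveolar fibroblasts, against at most 4.05 CPM in the other epithelial types. Cped1 held 1636 CPM in AT1 cells and 768 CPM in adventitial fibroblasts.

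Igfbp2, which encodes a binding protein of insulin-like growth factors, was nearly restricted to AT1 cells among all types: 314 CPM against 9.004 CPM in ciliated cells, the nearest type, a 34.8-fold difference. It was seen in 39.3% of AT1 cells and 0.199% of AT2 cells. AT1 cells with Igfbp2 had a median of 2426 transcripts, and those without it 1547. It varied widely between samples. Its lowest value was 34.6 CPM (1 transcript in BIBO3304 1), its median 388 and its highest 968 CPM (12 transcripts in vehicle 2), while AT2 cells never exceeded 4.56 CPM. Wnt3a, a Wnt ligand gene, reached 159 CPM against 6.06 CPM in AT2 cells, the nearest of all types (26.2-fold), and was seen in 26.7% of AT1 cells. In the samples with at least 10 AT1 cells it ran from 65.8 to 276 CPM.

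Among the 15 genes with the largest ratio over every other type were also Frmpd1 (67.5 CPM), Slc22a22 (98.1 CPM), Edn3 (71.9 CPM), Itgb6 (181 CPM), Hs2st1 (1068 CPM) and the noncoding RNA Platr22 (146 CPM). Frmpd1, Slc22a22 and Edn3 rested on 31 to 45 transcripts in AT1 cells. Itgb6 encodes a subunit of the integrin that activates latent TGF-beta, Hs2st1 a heparan sulfate sulfotransferase and Edn3 an endothelin. Itgb6 was at 0 in 1 of the 8 samples with at least 10 AT1 cells and lay above AT2 cells in the other 7.

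**Figure D3:**
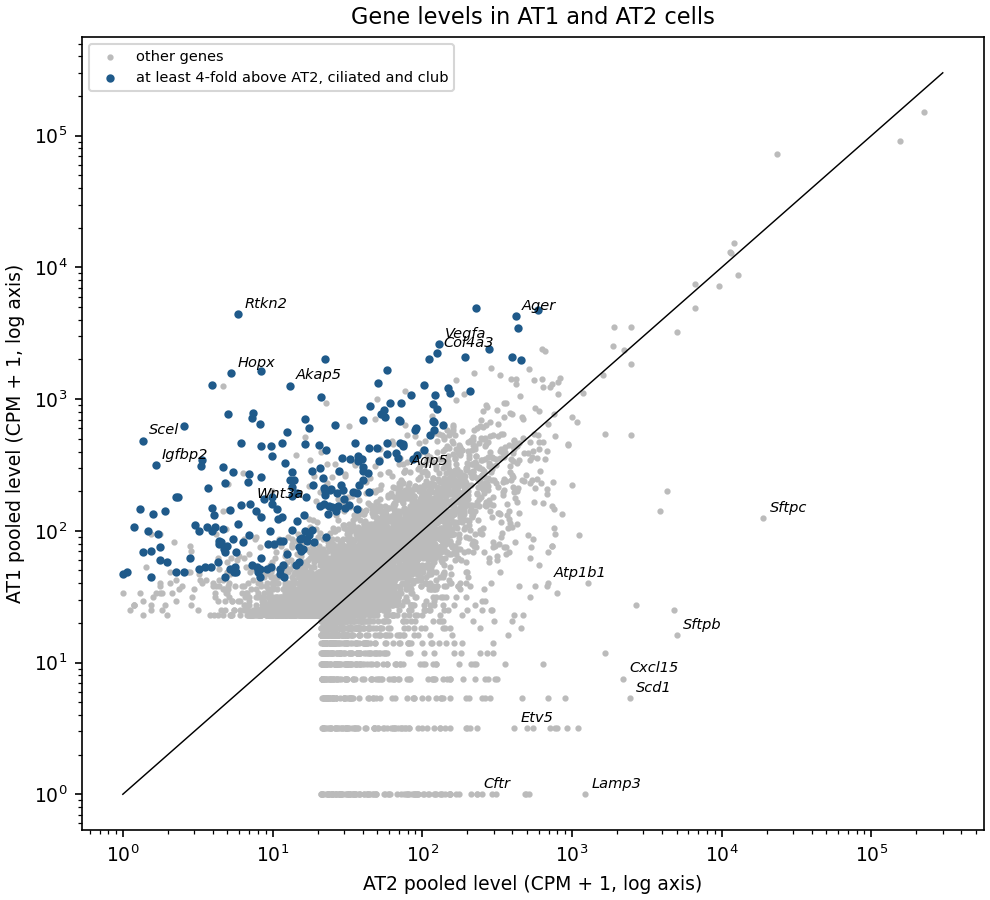
Pooled level of each gene with at least 20 CPM in either type, as CPM + 1 on log axes, in AT2 cells (x) and AT1 cells (y), with the line of equal level. The 225 genes at least 4-fold above AT2, ciliated and club cells are blue, and Sftpc, Sftpb and Lamp3 lie far below the line.

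All 27 further genes known from AT1 cells reached the minimum, and 18 passed the 4-fold rule over the epithelium and 15 the 2-fold rule over all types. Over all genes compared the shares were 7.60% and 4.97%. The median excess of the 27 over the highest other epithelial type was 6.61-fold, against 1.14-fold over all genes that reached the minimum. The gene lists were chosen with earlier results of these data known, and types were assigned from the same transcripts. The minimum is also set on AT1 cells, so members low in them are not counted. For this list and those below, the counts are therefore description and no independent support. Lmo7, a LIM domain protein gene, reached 4744 CPM against 735 CPM in club cells. Limch1, an activator of non-muscle myosin, reached 4918 CPM against 227 CPM in AT2 cells, with 3607 CPM in alveolar fibroblasts. Gramd2 reached 941 CPM against 117 CPM in ciliated cells. Cyp2b10, a cytochrome P450 gene, reached 1042 CPM against 151 CPM in ciliated cells. Sec14l3, a lipid transfer protein gene, was higher in ciliated cells (1626 CPM) than in AT1 cells (1150.5 CPM). Timp3, an inhibitor of metalloproteinases, was higher in large-vessel endothelium (2611 CPM) than in AT1 cells (1728 CPM).

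Genes of the basement membrane showed an unequal pattern within their families. Of 20 list members, 14 reached the minimum. Among these 14, 5 passed the 4-fold rule over the epithelium and 5 the 2-fold rule over all types. Over all genes compared the shares were 7.60% and 4.97%. Col4a3, which encodes the type IV collagen chain alpha-3, reached 2225 CPM in AT1 cells against 125 CPM in AT2 cells and 214 CPM in mesothelium. Over the 15 samples its lowest value was 1596, its median 2216 and its highest 3556 CPM, and AT2 values stayed between 71.6 and 212 CPM. Col4a4, its partner chain, reached 2024 CPM against 109 CPM in AT2 cells. The chains Col4a1 and Col4a2, which most basement membranes use, were not set apart in this way. Col4a1 held 729.9 CPM in AT1 cells, 351 CPM in AT2 cells and 871 CPM in general capillary endothelium.

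The laminin chains differed likewise. Lama3, the alpha chain of epithelial laminin-332, reached 1318 CPM against 62.1 CPM in ciliated and 159 CPM in mesothelial cells. Its partner Lamb3 held 159 CPM, 2.45 times its level in AT2 cells, with 153 CPM in natural killer cells. Agrn, the proteoglycan agrin, reached 447 CPM against 51.6 CPM in club cells and 57.4 CPM in general capillary endothelium. Hspg2, perlecan, reached 412 CPM against 21.8 CPM in AT2 cells, with 327 CPM in smooth muscle and pericytes. Lama1 and Nid2 were at 0 in AT1 cells, where 3 transcripts would be 6.54 CPM, and Nid1, Lama2, Lama4 and Lamb1 rested on 1 or 2 transcripts each.

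Caveola genes were shared with the endothelium. Of 7 members, 6 reached the minimum. Among these 6, 3 passed the 4-fold rule over the epithelium and 1 the 2-fold rule over all types. Over all genes compared the shares were 7.60% and 4.97%. Cav1, caveolin-1, held 713 CPM in AT1 cells, 18.1 CPM in club cells and 472 CPM in general capillary endothelium. Cavin2, a coat protein of caveolae, held 562 CPM in AT1 cells and 764 CPM in aerocyte capillary cells. Ehd2, an ATPase at the caveolar neck, held 285 CPM in AT1 cells and at most 108 CPM elsewhere. The same pair of AT1 cells and aerocytes shared Clic5 (1671 and 897 CPM), an actin-linked chloride channel family gene, and Emp2 (913 and 672 CPM), a tetraspan membrane protein gene. In AT2 cells Clic5 held 57.5 CPM and Emp2 118 CPM.

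Among 23 secreted signals, 11 reached the minimum. Of those 11, 6 passed the 4-fold rule over the epithelium and 4 the 2-fold rule over all types. Members low in AT1 cells fell below the minimum and dropped out before this count, so it is description only. Over all genes compared the shares were 7.60% and 4.97%. Vegfa, the main growth factor of blood vessels, reached 2604 CPM in AT1 cells against 128 CPM in AT2 cells and 343 CPM in general capillary endothelium. In samples it ran from 1185 to 3099 CPM in AT1 cells, with a median of 2498, and from 54.5 to 168 CPM in AT2 cells. It was seen in 96.3% of AT1 cells and 29.0% of AT2 cells. Sema3a, a guidance cue for axons and vessels, held 767 CPM in AT1 cells, 29.7 CPM in club cells and 856 CPM in lymphatic endothelium. Sema3e, a related semaphorin, held 1253 CPM in AT1 cells and 669 CPM in ciliated cells, but 3.66 CPM in AT2 cells. Bdnf, a neurotrophin gene, held 146 CPM in AT1 cells and 0.300 CPM in AT2 cells, with 53.6 CPM in smooth muscle and pericytes. Pdgfa, a growth factor gene for fibroblasts, held 211 CPM in AT1, 116 CPM in ciliated and 22.02 CPM in AT2 cells.

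Signals known from AT2 cells were low in AT1 cells. Il33, an alarmin gene, rested on 2 transcripts (4.36 CPM) against 194 CPM in AT2 cells. Cxcl15, the lung chemokine lungkine, rested on 3 transcripts (6.54 CPM) against 2189 CPM. Wnt4, Wnt7b, Csf2, Edn1 and Apln were at 0 in AT1 cells, and in AT2 cells none of them exceeded 6.66 CPM, so no difference from AT2 cells was detectable at this depth.

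For ion and water transport, 9 of 17 members reached the minimum. Of those 9, 3 passed the 4-fold rule over the epithelium (Clic5, Scnn1g and Clic3) and 5 the 2-fold rule over all types. Over all genes compared the shares were 7.60% and 4.97%. The sodium channel subunits Scnn1a, Scnn1b and Scnn1g all passed the 2-fold rule over all types, and of them only Scnn1g the 4-fold rule. Scnn1a held 482 CPM in AT1 cells against 103 CPM in AT2 and 208 CPM in ciliated cells. Scnn1b held 198 CPM against 8.94 CPM in AT2 and 63.2 CPM in club cells. Scnn1g held 305 CPM against 3.66 CPM in AT2 and 37.4 CPM in club cells, and in the 8 samples with at least 10 AT1 cells it ran from 215 to 464 CPM, above AT2 cells in each.

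Atp1b1, the beta-1 subunit of the sodium pump, which takes sodium out at the other side of the cell, showed the opposite order. It held 39.2 CPM (18 transcripts) in AT1 cells against 690.4 CPM in AT2 cells and was lower in AT1 cells in 8 of 8 samples. Cftr, the chloride channel mutated in cystic fibrosis, was at 0 in AT1 cells and held 230.4 CPM in AT2 cells, a difference of at least 35.2-fold with a floor of 3 transcripts over the pooled AT1 cells.

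Of 14 genes of tight junctions and adhesion, 7 reached the minimum. Among these 7, 0 passed the 4-fold rule over the epithelium and 1 the 2-fold rule over all types. Beside the shares over all genes compared (7.60% and 4.97%), such small counts do not set the list apart. Cldn18, the claudin of the alveolar epithelium, held 645 CPM in AT1 cells and 319.9 CPM in AT2 cells. Tjp1, a junction scaffold gene, held 560.0 CPM in AT1 cells, 157 CPM in AT2 cells and 707 CPM in general capillary endothelium. Cldn1, Cldn3 and Cldn4 were at 0. Epcam, a gene used to sort lung epithelium, held 26.1 CPM (12 transcripts) in AT1 cells against 83.1 CPM in AT2 and 106 CPM in ciliated cells, and was lower than in AT2 cells in 8 of 8 samples. Cdh1, E-cadherin, held 307 CPM in AT1 and 278 CPM in AT2 cells.

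Among 18 transcription factors of the lung epithelium, 8 reached the minimum and 1 passed each rule, which was the marker Hopx itself. Beside the shares over all genes compared (7.60% and 4.97%), a count of 1 does not set the list apart. Nkx2-1, the lineage factor of lung epithelium, held 157 CPM in AT1 and 119 CPM in AT2 cells, and AT1 cells were higher in 4 of 8 samples. Gata6 held 150.3 CPM in AT1 and 64.1 CPM in AT2 cells and was higher in 8 of 8. Factors known from AT2 cells were near 0: Etv5 (1 transcript in AT1 cells, 412 CPM in AT2 cells), Cebpa (1 transcript, 80.0 CPM) and Tfcp2l1 (2 transcripts, 151 CPM).

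In the Hippo pathway, which controls growth through YAP and TAZ, 9 of 16 members reached the minimum. Among these 9, 2 passed the 4-fold rule over the epithelium and 1 the 2-fold rule over all types. Over all genes compared the shares were 7.60% and 4.97%. Counts this small do not set the list apart. Tead1, the DNA-binding partner of YAP and TAZ, held 1118 CPM in AT1 cells against 251 CPM in club and 153 CPM in AT2 cells. The target gene Ankrd1 was the other member past the 4-fold rule, with 43.6 CPM from 20 transcripts. Wwtr1, which encodes TAZ, held 288 CPM in AT1 and 150 CPM in AT2 cells. Yap1 held 63.2 CPM in AT1 and 88.9 CPM in AT2 cells, lower in AT1 cells in 6 of 8 samples. The target gene Ccn1 held 394 CPM against 20.2 CPM in AT2 and 103 CPM in club cells. Higher levels than in AT1 cells were seen for Ccn1 in peribronchial fibroblasts (506 CPM) and for Ankrd1 in cancer cells (145 CPM). In large-vessel endothelium Wwtr1 (733 CPM) and Yap1 (199 CPM) were also higher. Tead1 was highest in AT1 cells, with 491 CPM in alveolar fibroblasts, the nearest type.

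**Figure D4:**
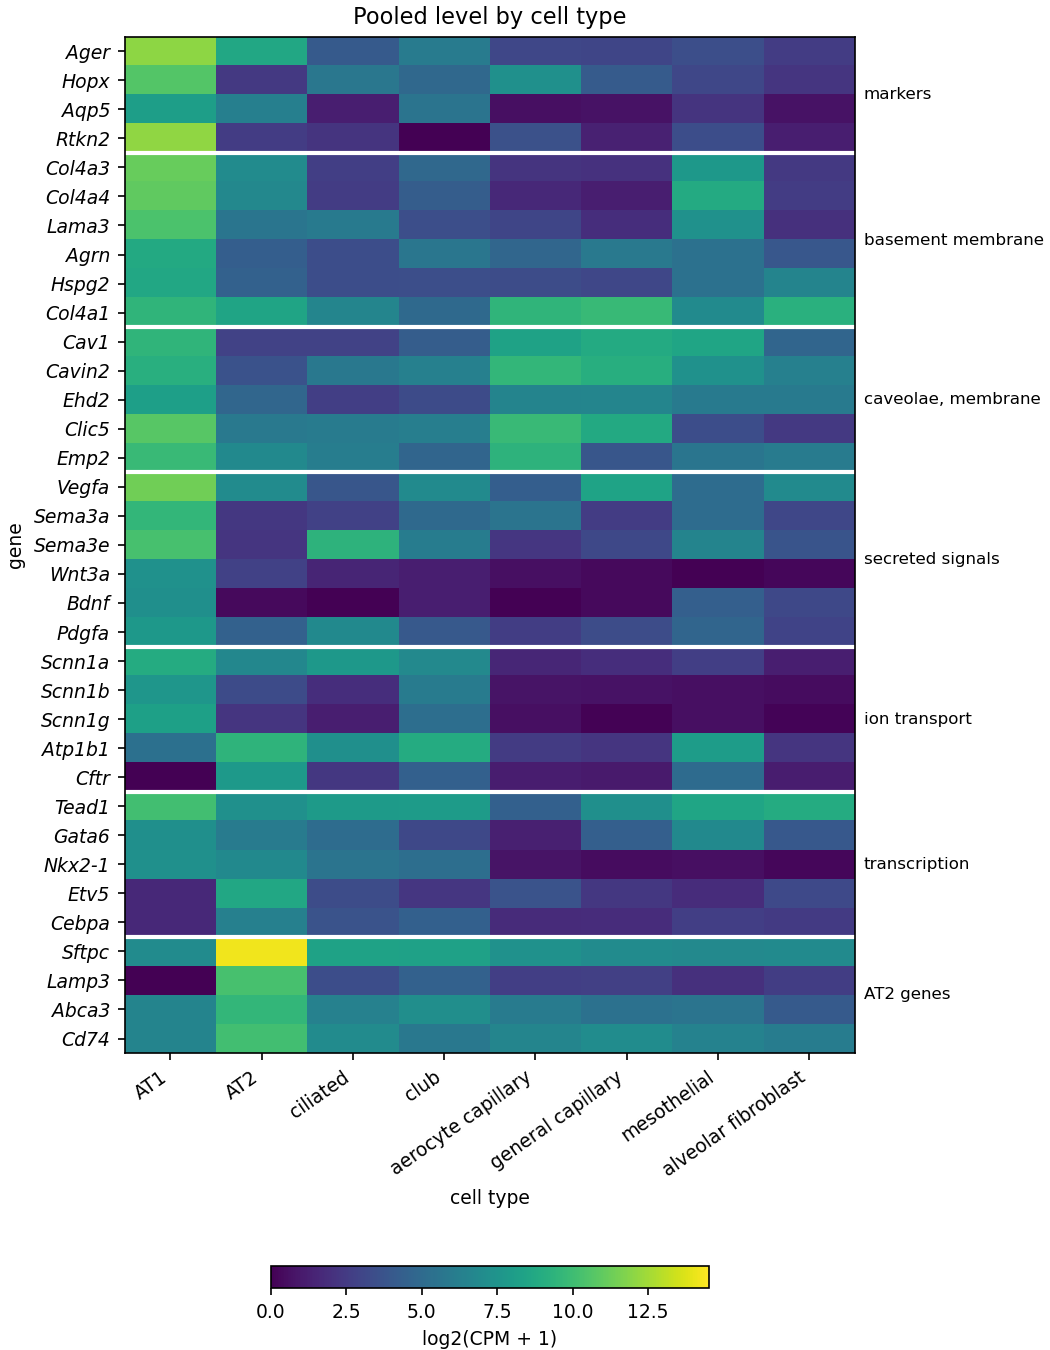
Pooled level as log2(CPM + 1) of 35 genes, grouped by role (rows), in AT1 cells and 7 other annotated cell types (columns). Col4a3, Lama3, Vegfa and the sodium channel genes are brightest in AT1 cells, while Cav1, Cavin2, Clic5 and Emp2 are also bright in aerocyte capillary cells.

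For receptors and transmitters of sympathetic nerves, the pathway the study perturbs, few transcripts were seen in AT1 cells. Of 15 list members 11 were at 0, which is near the 65.7% of all 38003 genes that were at 0 in AT1 cells and says nothing particular of the list. The 11 included Npy, Npy1r, Npy2r, Npy5r and the noradrenaline transporter gene Slc6a2. Adrb1 rested on 8 transcripts and Adra1a on 6. Dpp4, a peptidase that cleaves neuropeptide Y, rested on 3 transcripts (6.54 CPM) against 187 CPM in AT2 cells. With the floor of 3 transcripts, a gene at 0 can have a level of up to 6.54 CPM, by counting error only.

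The 11 marker genes of AT2 cells summed to 312 CPM in AT1 cells (87.8 to 549.9 in the 8 samples with at least 10 AT1 cells), against a median of 298 CPM over the other 21 types and 39169.5 CPM in AT2 cells. Sftpc, the surfactant protein that marks AT2 cells, held 124 CPM in AT1 and 18992 CPM in AT2 cells. It was seen in 18.3% of AT1 cells, which was below the 22.2% of aerocyte capillary cells and the 26.4% of alveolar fibroblasts, types that should lack it. The median depths of the 3 types were 1923, 1602 and 2653.5 transcripts, and the part of free RNA was not tested. No AT1 cell held more than 7 Sftpc transcripts, and the median AT2 cell held 68. Lamp3, a gene of lamellar bodies, was at 0 against 1223 CPM, at least 187-fold lower with the floor of 3 transcripts. Scd1, a fatty acid desaturase gene, rested on 2 transcripts against 2424 CPM, and Hc, complement C5, on 1 against 1105 CPM. Abca3, the surfactant lipid transporter, held 93.7 CPM against 767 CPM, with 82.4 CPM in ciliated and 141 CPM in club cells. Of 8 MHC genes, 4 reached the minimum and 0 passed either rule, where 7.60% and 4.97% of all genes compared did. Cd74, the invariant chain of MHC class II, held 91.5 CPM in AT1 and 1117 CPM in AT2 cells, lower in 8 of 8 samples.

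Of 16 genes that mark AT2 cells in transition to AT1 cells, 6 reached the minimum and 1, Itgb6, passed both rules. Over all genes compared the shares were 7.60% and 4.97%, and a count of 1 says nothing of the group. Krt8, the keratin most used for that state, held 52.3 CPM in AT1, 55.5 CPM in AT2 and 172 CPM in ciliated cells. Krt19 held 119.8 CPM in AT1 and 17.7 CPM in AT2 cells, with 168 CPM in club cells. Cldn4 and Sprr1a were at 0. Of 8 cell-cycle genes 5 were at 0, near the 65.7% of all genes that were at 0 in AT1 cells. Mki67, a gene of dividing cells, rested on 7 transcripts.

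Markers of other cell types were checked over whole lists in the same cells. The 9 endothelial markers summed to 58.8 CPM in AT1 cells (0 to 131 CPM in the 8 samples with at least 10 AT1 cells) and 8491 CPM in aerocyte capillary cells, with Kdr and Emcn at 0. The 6 mesothelial markers summed to 8.72 CPM (0 to 44.1), with Msln, Wt1, Lrrn4 and Upk1b at 0. The 7 fibroblast markers summed to 689 CPM (457 to 837), of which Npnt, the basement membrane protein nephronectin, gave 621 CPM, and Tcf21 was at 0. The 9 ciliated cell markers summed to 207 CPM (131 to 518), of which Tppp3 gave 196 CPM, and 5 of them were at 0. The 9 club cell markers summed to 80.6 CPM (0 to 169), with 4 at 0, and the 8 alveolar macrophage markers to 390.0 CPM (241 to 600), below the median of 748 CPM over the other 21 types. The 6 lymphocyte and granulocyte markers summed to 41.4 CPM (0 to 132), with 4 at 0. The levels that AT1 cells shared with endothelium and mesothelium therefore stood beside defining markers of those types at or near 0.

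Over all genes, the profile most like that of AT1 cells was that of AT2 cells (Pearson's r = 0.786 and Spearman's coefficient 0.795 of log2 levels across 10305 genes), followed by club cells (0.732 and 0.742) and mesothelium (0.704 and 0.712). Ciliated cells stood far lower (0.620 and 0.626), below aerocyte capillary cells (0.663 and 0.673). These are correlations across genes that share libraries and free RNA, and genes are not independent replicates.

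The number of AT1 cells in each sample was small. Vehicle samples 1 to 3 held 30, 9 and 16 AT1 cells, 6-OHDA samples 10, 9 and 6, and BIBO3304 samples 16, 22 and 13. Among seeded samples, those under vehicle held 16 and 19, those under 6-OHDA 8 and 7, and those under BIBO3304 8 and 2. As a percent of all cells, the lowest was 0.0422% in BIBO3304-PDAC 2 (95% Clopper-Pearson interval 0.00511 to 0.152) and the highest 0.566% in BIBO3304 2 (0.355 to 0.855). Both BIBO3304-PDAC samples lay below all samples of the other groups except vehicle 2 (0.143%), which lay just under BIBO3304-PDAC 1 (0.146%). The vehicle samples overlapped with those of every other group.

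**Figure D5:**
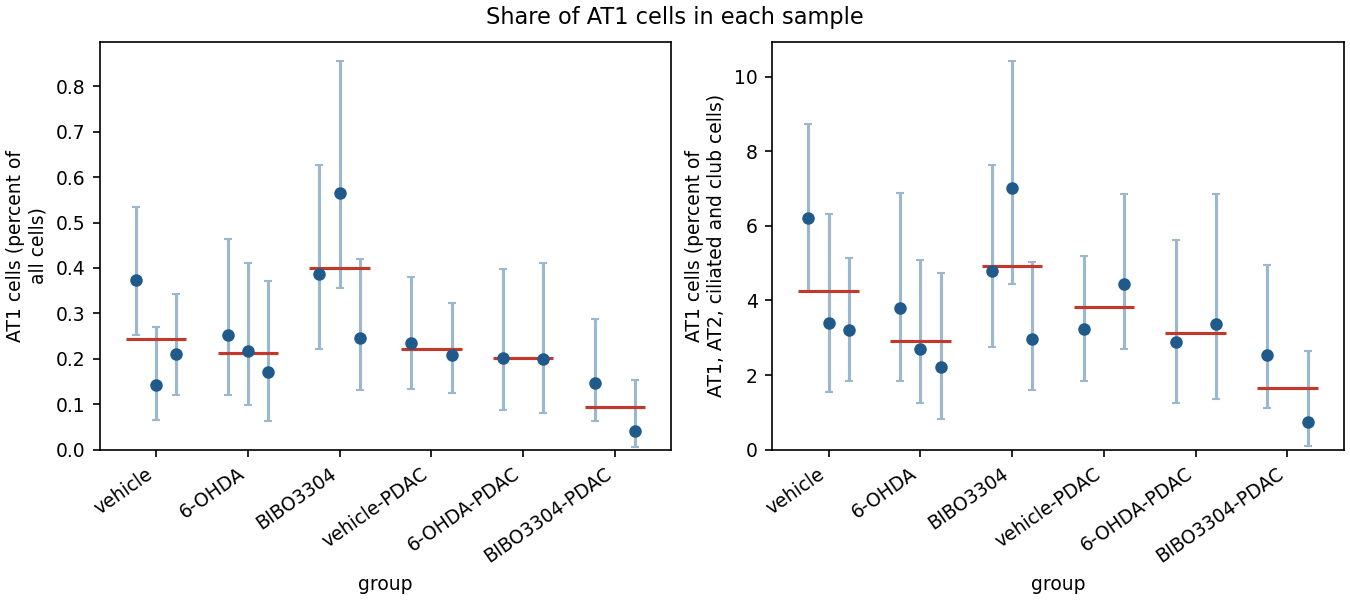
AT1 cells as a percent of all cells (left) and of the 4 epithelial types (right) in each sample, by group. Points are samples with 95% Clopper-Pearson intervals for counting error, and red lines are group means. BIBO3304-PDAC has the lowest mean in both panels, at 0.0943% and 1.64%.

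The share of AT1 cells was compared between groups with edgeR's quasi-likelihood test on cell numbers, adjusted over the 22 types. Only PDAC cells against none under BIBO3304 passed. AT1 cells made up 0.399% ± 0.160 (SD, n = 3) of cells under BIBO3304 and 0.0943% ± 0.0736 (SD, n = 2) under BIBO3304 with PDAC cells. The log2 fold change was -1.70 ± 0.587 (SE), with edgeR's adjusted p = 0.0399, and AT1 cells were lower in both seeded samples than in all 3 unseeded ones. In this comparison 27.3% of types (6 of 22) were called, so AT1 cells were 1 of several. Without BIBO3304-PDAC 1 the log2 fold change was -2.95, with edgeR's adjusted p = 0.0167. The call was lost without BIBO3304-PDAC 2, where the log2 fold change was -1.18 and edgeR's adjusted p = 0.343, without BIBO3304 1 (0.0724) or BIBO3304 2 (0.131), and among cells of at least 1000 transcripts (0.0993). Depth moved with the groups, with sample medians of 2631 to 4846.5 transcripts per cell under BIBO3304 and 1623 to 2417 with PDAC cells added, and its part in the result was not tested. Fewer AT1 cells in the lung and fewer AT1 cells recovered from the tissue cannot be told apart.

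The other 6 comparisons did not pass. For 6-OHDA against vehicle, the shares were 0.213% ± 0.0411 and 0.243% ± 0.119 (SD, n = 3 each). The log2 fold change was -0.44 ± 0.471 (SE) with edgeR's adjusted p = 0.735, where 13.6% of types were called. For BIBO3304 against vehicle the log2 fold change was 0.40 ± 0.432 (edgeR's adjusted p = 0.550, 9.09% of types called). For PDAC cells against none it was -0.31 ± 0.482 under vehicle (edgeR's adjusted p = 0.823, 0% called) and 0.14 ± 0.588 under 6-OHDA (0.962, 9.09% called). Of the 22 types, 2 reached an unadjusted p under 0.05 under vehicle, and DESeq2 called 1. Without vehicle-PDAC 2 the value under vehicle was -0.0075 (edgeR's adjusted p = 0.990). Among seeded samples it was 0.017 ± 0.593 for 6-OHDA against vehicle (edgeR's adjusted p = 0.978, 13.6% called) and -0.99 ± 0.629 for BIBO3304 against vehicle (0.527, 0% called). For the last, 1 type reached an unadjusted p under 0.05 and DESeq2 called 0. Without vehicle-PDAC 2 these were -0.30 and -1.36 (edgeR's adjusted p = 0.750 and 0.645). Whether the effect of PDAC cells differed between treatments was not tested.

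Within the epithelium, AT1 cells made up 4.26% ± 1.68 of the 4 types under vehicle, 2.91% ± 0.816 under 6-OHDA and 4.92% ± 2.02 under BIBO3304 (SD, n = 3 each). With PDAC cells they made up 3.83% ± 0.858, 3.13% ± 0.349 and 1.64% ± 1.28 under the same treatments (SD, n = 2 each). No comparison passed a two-sided exact permutation test. The smallest p was 0.2, for PDAC cells against none under BIBO3304, and 0.778 after adjustment over 7 comparisons, in a design that cannot go below 0.1. With 2 samples against 2 it cannot go below 0.333. Without vehicle-PDAC 2, the difference of PDAC cells from none under vehicle moved from -0.43 to -1.03 percentage points. Against vehicle-PDAC, that of 6-OHDA-PDAC moved from -0.70 to -0.091 and that of BIBO3304-PDAC from -2.19 to -1.58.

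Marker levels of AT1 cells by group are given as values without a test, since most samples held under 20 AT1 cells. Ager held 5185 CPM under vehicle (638 transcripts, samples 4757 to 5245), 4803 under 6-OHDA (4154 to 5709) and 3535 under BIBO3304 (2958 to 4043). With PDAC cells it held 4291 under vehicle (3967 to 4629), 4234 under 6-OHDA (2983 to 5793) and 3123 under BIBO3304 (2996 to 4346). The 3 vehicle samples thus lay above the 3 BIBO3304 samples without overlap, and seeded samples overlapped. Ager in AT2 cells of the same samples was 593, 495 and 610.4 CPM under vehicle and 471, 289.6 and 309 CPM under BIBO3304, also without overlap. How many of all genes lay apart in this way in AT2 cells was not counted, so nothing is drawn from this. Hopx lay at 1890 to 2107 CPM in AT1 cells under vehicle and 1151 to 1348 under BIBO3304, again without overlap, while Aqp5 and Rtkn2 overlapped. Igfbp2 held 430.2 to 968 CPM under vehicle and 34.6 to 222 under BIBO3304. In AT1 cells, 6.93% of the 2959 genes lay higher in every vehicle sample than in every BIBO3304 sample and 4.33% lower in every one. Ager, Hopx and Igfbp2 were singled out for this contrast after their values were seen. Sample medians of transcripts per cell also did not overlap, with 1640 to 1906 under vehicle and 2631 to 4846.5 under BIBO3304, and the part of depth was not tested.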

How the data were processed

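Raw counts of transcripts, per gene and per cell, were deposited without normalisation. The totals per cell equalled the deposited count in all AT1 cells and 99.0% of all cells. The deposited cell table gives sample, treatment, seeding, cell type and the authors' percent of mitochondrially encoded transcripts. The submitters' processing notes list Seurat 5.3.0 and mm39. Neither aligner nor filter is given in the sources used here. The 16 GEO entries are sublibraries, so groups came from the cell table, where seeding is written as IV and was read as PDAC cells seeded. The members and gene lists were chosen with earlier results of these data known.

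Counts were summed over the cells of a type, or of a type and sample, and divided by their total (CPM). A gene was compared where AT1 cells held at least 20 transcripts and 20 CPM, and a type with fewer than 3 transcripts was set to 3. No test compares cell types. Genes were named by rule: the 4 markers, list members by counts with examples, the 20 genes with the largest ratio over the other epithelial types and 15 over all types (at least 50 CPM, 30 transcripts and 8 samples), and the 10 lowest against AT2 cells (at least 100 CPM there). Predicted, ribosomal, mitochondrial and immunoglobulin genes were left out of the ranked sets. Values are printed for a part of the named genes, some genes are not reported here, and list members beyond the 6 highest were picked with their values known. Numbers of cells per type were fitted with edgeR 4.0.16 in R 4.3.3, with all 6 groups in 1 fit, TMM scaling and adjustment by the Benjamini-Hochberg method (threshold 0.05). Shares within the epithelium used exact permutation tests (scipy 1.17.1). The profile correlation used log2 CPM with a pseudocount of 1. Doublets were not removed, and leaving out the top 5% of cells by transcripts was an alternative, with DESeq2 1.42.0, other scalings, deeper cells and leaving out each sample.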

Additional observations from a re-analysis of the deposited data

How the results depend on the processing

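The call for AT1 cells under BIBO3304 with PDAC cells kept its direction in all settings run, but not its side of the threshold. It was lost among cells of at least 1000 transcripts (log2 fold change -1.42, edgeR's adjusted p = 0.0993) and when only the 2 groups were fitted (-1.75, 0.0756), and leaving out each sample gave -2.95 to -1.18. It held with DESeq2 (-1.76, adjusted p = 0.0155) and with the replicate block (-1.90, edgeR's adjusted p = 0.0294). Same-numbered samples correlated over 0.1 in 13 of 33 pairs. Pairs between groups of 2 samples repeat the same value, so whether the numbers pair samples cannot be told from these. For AT1 cells the block changed no call. With it, the number of types called moved from 3 to 2 for 6-OHDA against vehicle and from 2 to 3 for BIBO3304 against vehicle.

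Small differences without a call changed sign. For PDAC cells against none under 6-OHDA the log2 fold change was -0.032 with RLE scaling, -0.090 with none, -0.0052 with the replicate block, -0.51 in cells of at least 1000 transcripts, -0.033 with DESeq2, and -0.039 to 0.26 leaving out each sample. For 6-OHDA-PDAC against vehicle-PDAC the same settings gave -0.23, -0.13, -0.00094 (block), -0.65, -0.24 and -0.30 to 0.11, and -0.44 with only the 2 groups. Under vehicle, leaving out samples gave -0.62 to 0.39. Within the epithelium, cells of at least 1000 transcripts gave 0.075 percentage points for PDAC cells under vehicle and -0.54 under 6-OHDA. Leaving out samples gave -1.03 to 0.54 and -0.12 to 0.68 for these, and -0.39 to 1.63 for BIBO3304 against vehicle. The cause was not tested.

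At doubled folds 104 and 53 genes passed, and the other settings gave 195 to 270 and 134 to 180. For 131 genes followed, each at 17 settings, 2220 of the 2227 ratios stayed within a factor of 2. Most of these settings left out a sample and kept the rest of the pooled cells. Such ratios share most of their transcripts, so closeness was largely built in and nothing is drawn from this count. With 191 cells, a gene at 0 could have a level of up to 6.54 CPM (3 transcripts).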
